A study of Homo sapiens with 6 samples.

Results

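G2/M and mitotic spindle genes are described here across 6 RNA sequencing libraries of HepG2, an established human hepatoma line. The 41 genes were chosen by symbol, and each matched 1 row of a count table of 52408 genes. In 3 libraries the cells had received 50 µM ellagic acid (EA), a plant polyphenol, and in the other 3 only its solvent DMSO (0 µM EA), for 24 h in each case. All 6 libraries come from the same unmodified line, with 1 dose and 1 time point. Whether replicates were separate cultures is not stated in the labels. The p-values therefore rest on the variation among these 6 libraries alone, and that variation may be technical.

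A cell that has copied its DNA enters mitosis when cyclin B and the kinase CDK1 become active together. Aurora and polo kinases, kinesin motors and microtubule-binding proteins then build the spindle, and the spindle checkpoint holds the anaphase-promoting complex (APC/C) until every kinetochore is attached. The APC/C next marks securin and cyclin B for destruction, and the cell divides by cytokinesis. The genes of these steps are transcribed mainly in late S and G2 phase, from promoters on which MuvB protein complexes act at an element called the CHR. In dividing cultures their mRNA level therefore depends in part on the share of cells in G2 and M. In bulk RNA, fewer cells in those phases and less mRNA per cell cannot be told apart.

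Gene reads numbered 22987425 to 25973621 in the DMSO libraries and 15738089 to 19202292 in the EA libraries. Levels are reads per 1000000 (CPM) of TMM-scaled library size. A rise or fall is thus measured against the bulk of the transcriptome, not per cell. The hepatocyte markers checked (ALB, AFP, APOB, TTR, SERPINA1, TF, APOA2 and HNF4A) were read in all libraries, with a summed level of 50056 to 52899 CPM in DMSO and 12158 to 12786 in EA. Of 6 leukocyte markers PTPRC, CD68 and CD3E were at 0 reads in every library, and the list's sum of 1761 to 1841 CPM in DMSO and 291 to 355 in EA was nearly all LYZ. Of 6 stromal markers COL1A2 and DCN were at 0, with sums of 16.4 to 17.6 and 4.61 to 6.45 CPM. Of 5 endothelial markers CLEC4G was at 0, and the sums were 2.32 to 2.44 and 3.34 to 4.42 CPM. The 4 biliary markers summed to 653 to 712 CPM in DMSO and 1461 to 1644 in EA, mostly KRT19, a keratin. The part of these lists in the results was not tested. EA replicate 3 stood apart from EA replicates 1 and 2, with a second principal component of 33.78 against -18.54 and -14.19 (2.49% of the variance, on log2 CPM of all tested genes). The main counts, the median and some single values below are therefore also given without it.

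With EA, 40 of the 41 genes fell and 1, the cytokinesis regulator ECT2, rose. Calls were made with edgeR's quasi-likelihood F-test at an adjusted p of 0.05 (Benjamini-Hochberg, over all 15648 genes tested). All 41 genes passed its filter on low counts, with at least 23 reads in every library. Over all tested genes 40.5% fell and 40.5% rose, 81.0% in either direction, so a call alone was common. The median log2 fold change of the 41 genes was -1.91, against 0.00 over all tested genes. Of the 41, 38 were at least 2-fold lower, as were 21.5% of all tested genes. A fall of at least 4-fold was estimated for 17 (7.08% of all tested genes) and of at least 8-fold for 8 (2.54%). In 40 of the 41 genes every EA library lay below every DMSO library, a pattern seen in 41.5% of all tested genes. Without EA replicate 3 the counts were again 40 lower and 1 higher, with 41.5% of 16444 tested genes lower, and the median was -1.69. Fewer genes passed each fold without that library: 37 genes were at least 2-fold lower (22.1% of all tested genes), 10 at least 4-fold (7.51%) and 7 at least 8-fold (2.97%). CENPA, UBE2C, KIF11, NUSAP1, CENPE, MAD2L1 and KIF2C then had falls of 3.40-fold to 3.96-fold.

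The 41 genes together took 0.412%, 0.404% and 0.413% of all gene reads in the DMSO libraries. They took 0.166%, 0.164% and 0.107% in EA replicates 1, 2 and 3. This raw share needs no scaling between libraries. Its mean was 2.81 times higher in DMSO than in EA, and 2.48 times higher when EA replicate 3 was left out.

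**Figure D1:**
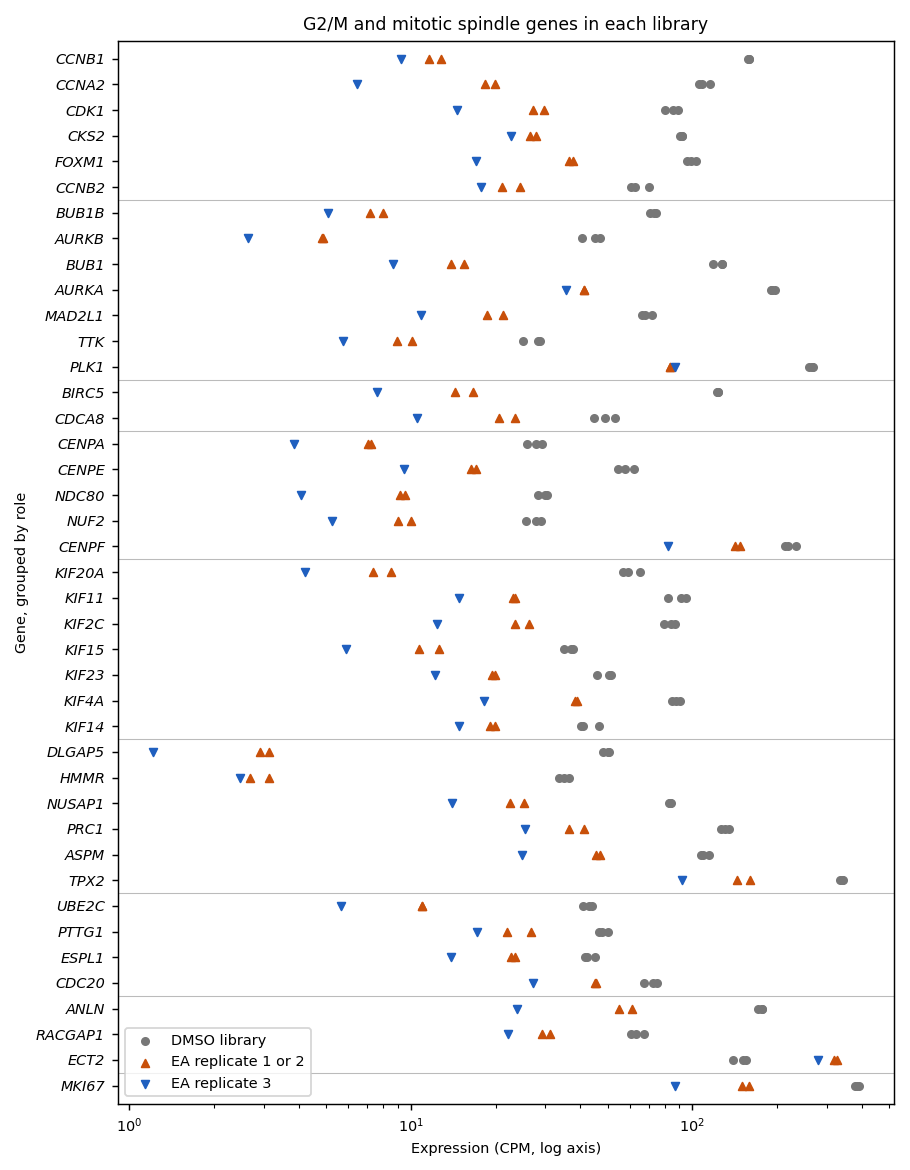
Expression of the 41 genes in each of the 6 libraries, in CPM on a log axis, grouped by role (from top: cyclins and CDK1, kinases and checkpoint, chromosomal passengers, kinetochore, kinesins, spindle, APC/C, cytokinesis, MKI67). Grey circles are DMSO libraries, which nearly coincide, orange triangles EA replicates 1 and 2, and blue triangles EA replicate 3, which is the lowest of the EA libraries for 40 of 41 genes.

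Cyclin B1 fell most among the cyclins and their partners. CCNB1 (ENSG00000134057), the cyclin whose binding switches on CDK1 at mitotic entry, had 159, 158 and 158 CPM in DMSO and 11.6, 12.8 and 9.25 in EA. The EA libraries lay close together and far under all DMSO libraries, a 14.1-fold fall (log2 fold change -3.82, SE 0.10). CCNB2 (ENSG00000157456), the Golgi-associated second B-type cyclin, had 69.9, 60.6 and 62.7 CPM in DMSO and 24.4, 21.1 and 17.8 in EA. Its fall was 3.06-fold (-1.61, SE 0.11), so the paralogues kept different shares of their transcripts. Per kilobase of merged exons the DMSO level of CCNB1 was 62.0 CPM against 23.0 for CCNB2, and the EA level 4.38 against 7.53, which turned their order round.

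Cyclin A2 and CDK1 varied more between EA libraries. CCNA2, the cyclin of S phase and early mitosis, had 115, 106 and 109 CPM in DMSO and 19.9, 18.3 and 6.45 in EA, where replicate 3 was low. Its log2 fold change was -2.89 (SE 0.40), and -2.55 without that library. CDK1, the mitotic kinase itself, had 85.4, 80.2 and 88.9 CPM in DMSO and 27.2, 29.7 and 14.6 in EA, 3.57-fold lower overall. CKS2, the small subunit that docks CDK1 on its substrates, fell 3.55-fold with little spread in EA (26.5, 27.9 and 22.7 CPM). FOXM1, a transcription factor that activates G2/M genes, fell by 1.72 on the log2 scale (SE 0.30), to 37.6, 36.5 and 17.1 CPM from a DMSO mean of 99.5 ± 3.60 (SD, n = 3).

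All 7 genes of the mitotic and checkpoint kinase group were lower with EA. AURKA, the kinase of centrosomes and spindle poles, had 196, 191 and 190 CPM in DMSO and 41.2, 41.3 and 35.6 in EA. AURKB, the catalytic subunit of the chromosomal passenger complex at centromeres, had 47.1, 45.1 and 40.7 in DMSO and 4.85, 4.87 and 2.64 in EA. Their falls were 4.90-fold and 10.8-fold. PLK1, which drives centrosome maturation and mitotic entry, had 269, 266 and 260 CPM in DMSO and 83.5, 83.2 and 87.0 in EA. It was the only one of the 41 genes with its highest EA value in replicate 3, and its 3.13-fold fall had the smallest SE of the group (0.06).

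The checkpoint genes BUB1 and BUB1B fell almost equally. BUB1, a kinase that recruits checkpoint proteins to the kinetochore, had 127, 118 and 128 CPM in DMSO and 15.5, 13.9 and 8.61 in EA. BUB1B, which encodes the checkpoint inhibitor BUBR1, had 73.3, 70.5 and 74.3 in DMSO and 7.97, 7.15 and 5.07 in EA. Both sets of EA values were far under the DMSO range, at log2 fold changes of -3.30 and -3.44. TTK, the apical checkpoint kinase known as MPS1, and MAD2L1, the APC/C inhibitor MAD2, fell by smaller amounts of 1.73 and 2.02 on that scale. Among the passenger subunits BIRC5 (survivin) had 123, 123 and 123 CPM in DMSO and 14.3, 16.7 and 7.61 in EA, a fall of 9.58-fold. CDCA8 (borealin), in the same complex, fell 2.69-fold, from 48.8 ± 4.20 to 18.2 ± 6.81 CPM (mean ± SD, n = 3 per group).

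At the centromere and kinetochore 5 of 5 genes fell, with a wide range of sizes. CENPA, the centromeric histone H3 variant, fell 4.61-fold and CENPE, a plus-end kinesin of the kinetochore, 4.08-fold. NDC80 and NUF2, which form the microtubule-binding dimer of the outer kinetochore, had log2 fold changes of -1.97 and -1.77. CENPF, a large kinetochore and nuclear matrix protein, moved least of the 40 genes that fell, with 218, 214 and 233 CPM in DMSO and 142, 148 and 82.2 in EA. Its log2 fold change of -0.84 (SE 0.23, adjusted p = 0.0185 in edgeR's test) was -0.64 without EA replicate 3. The call was lost when a minimum fold of 1.5 was tested (adjusted p = 0.116).

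The 7 mitotic kinesins all fell. KIF20A, a motor needed to move passenger proteins to the midzone, had 64.9, 58.9 and 56.9 CPM in DMSO and 7.34, 8.53 and 4.23 in EA, a 9.02-fold fall with no overlap between the groups. KIF11, the bipolar motor that pushes spindle poles apart, fell 4.38-fold, and KIF15, which can share that work, 3.80-fold. The microtubule depolymerase KIF2C fell 4.04-fold. KIF4A, a chromosome-bound motor of the midzone, KIF23, the motor subunit of centralspindlin, and KIF14, a motor of late cytokinesis, fell 2.76-fold, 2.87-fold and 2.38-fold.

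The spindle assembly genes DLGAP5 and HMMR ranked 1 and 3 among the falls of all 41 genes. DLGAP5, which stabilises kinetochore fibres, had 50.2, 48.3 and 50.8 CPM in DMSO and 2.93, 3.13 and 1.22 in EA. Only 96 of the 15648 tested genes had a lower log2 fold change than its -4.37 (SE 0.20). HMMR, a spindle pole protein, lay between 33.5 and 36.4 in DMSO and had 2.68, 3.13 and 2.48 in EA, 12.6-fold lower and close together in the EA libraries. TPX2, which activates Aurora A on spindle microtubules, remained at 145, 160 and 92.1 CPM in EA against 340, 334 and 344 in DMSO. Falls of NUSAP1, PRC1 and ASPM, which bundle microtubules or focus spindle poles, were 4.07-fold, 3.80-fold and 2.83-fold.

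In APC/C activation and chromosome release 4 of 4 genes fell, with log2 fold changes from -2.22 to -0.87. CDC20, the mitotic activator of the APC/C, had 74.7, 72.6 and 67.1 CPM in DMSO and 45.4, 45.2 and 27.1 in EA, a 1.83-fold fall (log2 fold change -0.87, SE 0.19) that did not pass with a minimum fold of 1.5 (adjusted p = 0.0569 in edgeR's test). UBE2C, the ubiquitin-conjugating enzyme that works with the APC/C, fell 4.66-fold. Securin (PTTG1) fell 2.20-fold and separase (ESPL1), the protease it holds in check, 2.15-fold. MKI67, which coats mitotic chromosomes and encodes the Ki-67 antigen, had 378, 391 and 383 CPM in DMSO and 159, 150 and 86.7 in EA.

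ECT2 went against its own pathway partners. ECT2 (ENSG00000114346), the exchange factor that activates RhoA at the cleavage furrow, had 151, 139 and 155 CPM in DMSO and 326, 319 and 279 in EA. Every EA library lay above every DMSO library, with a log2 fold change of 1.05 (SE 0.07, adjusted p = 3e-09 in edgeR's test) and 1.10 without EA replicate 3. RACGAP1, the centralspindlin subunit that recruits ECT2, fell from 63.6 ± 3.52 to 27.5 ± 4.71 CPM, and KIF23, its partner, from 49.3 ± 2.89 to 17.2 ± 4.33 (mean ± SD, n = 3 per group). ANLN, which links RhoA to the actin ring, had 177, 171 and 176 CPM in DMSO and 61.2, 55.0 and 23.8 in EA.

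**Figure D2:**
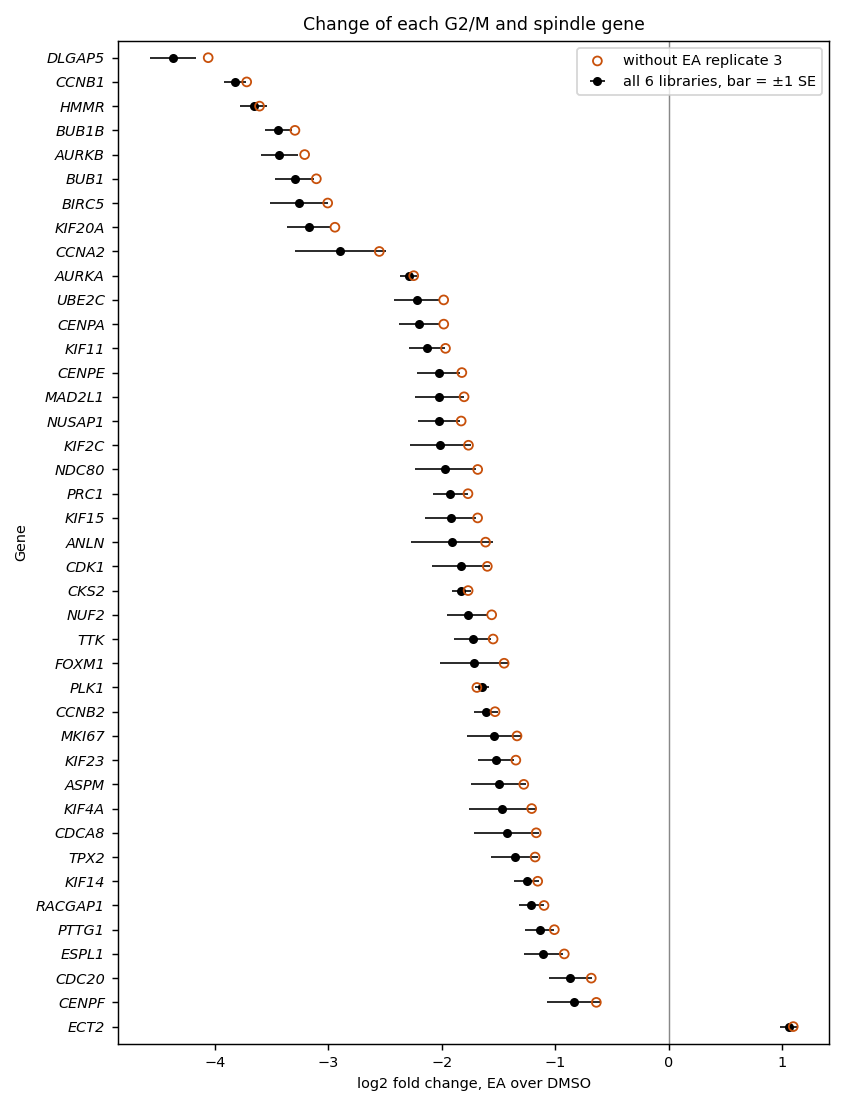
Log2 fold change of EA over DMSO for each of the 41 genes, ordered from the largest fall at the top. Black points with bars are estimates ± 1 SE from all 6 libraries and open orange circles those without EA replicate 3. DLGAP5 at -4.37 and ECT2 at 1.05 mark the ends.

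Size of fall and expression level were only weakly related. Across the 41 genes, Spearman's rho between the log2 fold change and the DMSO level per kilobase was -0.05, and 0.27 with merged exon length. These describe genes that share the same libraries and are not independent. In DMSO the levels per kilobase ran from 4.84 CPM for ESPL1 to 149 for CKS2, with TPX2 (94.1), AURKA (65.8) and CCNB1 (62.0) next. In EA, ECT2 had the highest level per kilobase (56.0 CPM) and DLGAP5 the lowest (0.661).

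The EA libraries did not carry the same amount of these transcripts. In 40 of 41 genes, all but PLK1, EA replicate 3 was the lowest of the EA libraries, as it was in 37.2% of all tested genes. The median ratio of EA replicate 3 to the mean of replicates 1 and 2 was 0.569 for the 41 genes and 1.01 for all tested genes. The coefficient of variation within EA had a median of 29.3% over the 41 genes and 10.8% over all tested genes, while within DMSO the medians were 4.17% and 6.26%. CCNA2 was at 0.341, ANLN at 0.411 and DLGAP5 at 0.421 of the level in the other EA libraries, but AURKA at 0.864, HMMR at 0.861 and PLK1 at 1.04. The same library was also the lowest in 26 of 29 DNA synthesis and S phase genes (median ratio 0.706). It was the lowest in 16 of 17 other mitotic kinesins and spindle proteins (0.558) and 32 of 36 other kinetochore and checkpoint genes (0.711). The drop was thus not particular to the 41 genes. In contrast, it was the lowest in only 1 of 11 tubulins (1.09) and 3 of 19 transport kinesins (1.12). The hepatocyte markers had a median ratio of 0.940. What set this library apart was not tested.

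Ratios of genes within a library show unequal change without any scaling between libraries. For 14 pairs of paralogues or partner proteins, the log2 ratio of reads was compared by a 2-sided exact permutation test. With 3 libraries against 3 its smallest possible p is 0.1, so no pair could pass 0.05. For 10 pairs the EA and DMSO ratios did not overlap, each with p = 0.1 in the exact test (0.14 adjusted over the pairs). How often ratios of other gene pairs separate in this way was not computed. Among single tested genes, every EA library lay below every DMSO library in 41.5% and above in 41.4%. The count of 10 is therefore not read as a trait of mitotic partners. CCNB1 had 2.47 times the reads of CCNB2 in DMSO and 0.532 times in EA, a log2 difference of -2.21 (SE 0.12). CCNB1 to CDK1 moved by -1.94 (SE 0.19) and CCNA2 to CDK1 by -1.15 (SE 0.22), so both cyclin transcripts fell further than that of their kinase. AURKA to AURKB moved by 1.17 (SE 0.23) and CENPE to CENPF by -1.18 (SE 0.04).

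Other partners kept nearly the same ratio. The log2 ratio of BUB1 to BUB1B was 0.77 ± 0.03 in DMSO and 0.89 ± 0.11 in EA (SD, n = 3). Securin to separase differed by -0.02 between the groups (SE 0.13), NDC80 to NUF2 by -0.24 (SE 0.13) and CKS2 to its paralogue CKS1B by -0.08 (SE 0.12), with overlapping values in each case. Such overlap in 3 against 3 libraries does not show that the ratios were equal. PLK1 had 7.78 times the reads of its stress-responsive paralogue PLK2 in DMSO and 0.678 times in EA. PLK1 had 13.3 times the reads of PLK3 in DMSO, and that log2 ratio moved by -3.15 (SE 0.10). In the polo family PLK2 rose from 34.0 ± 0.971 to 126 ± 19.8 CPM and PLK3 from 19.9 ± 1.20 to 56.4 ± 4.33, while PLK4, the kinase of centriole duplication, fell by 1.16 on the log2 scale.

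**Figure D3:**
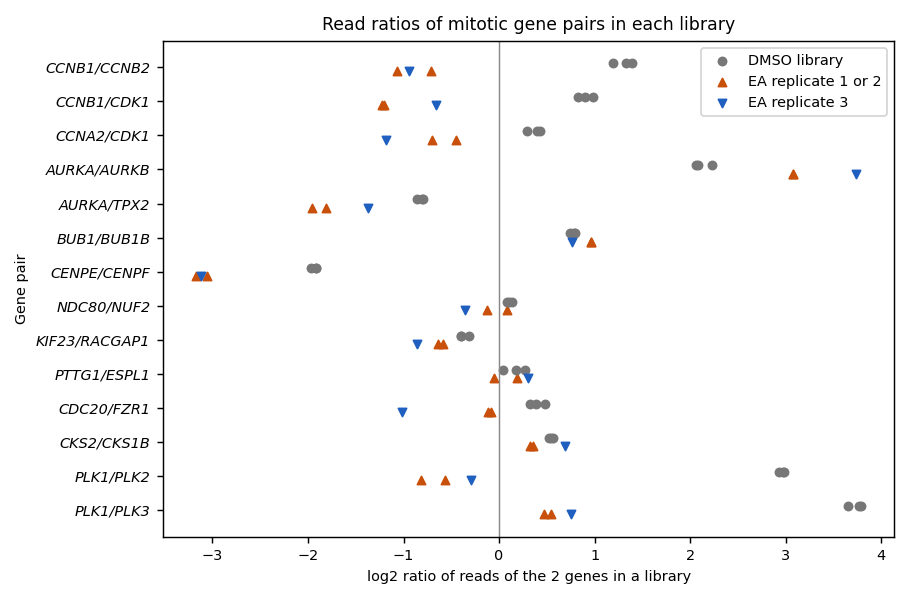
Log2 ratio of the reads of 2 genes within each library for 14 gene pairs. Grey circles are DMSO libraries, orange triangles EA replicates 1 and 2 and blue triangles EA replicate 3. CCNB1/CCNB2, CCNB1/CDK1, CCNA2/CDK1, CDC20/FZR1 and PLK1/PLK2 change sign between the groups. BUB1/BUB1B, NDC80/NUF2, PTTG1/ESPL1 and CKS2/CKS1B overlap.

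The promoters of these genes were searched for shared letters, although the genes themselves were chosen by symbol. The CHR is already known from promoters of G2/M genes. A high share of it in this list is therefore not an independent result. RefSeq windows on GRCh38.p14, from 250 bases before to 50 after the start, matched 34 of the 41 genes, and the first start listed was used where there were several (4 genes). FOXM1, AURKA, TTK, BIRC5, TPX2, UBE2C and RACGAP1 were not matched. Both strands were searched for the CHR forms TTTGAA and TTTAAA (the latter reads the same on both strands) and for CCAAT, the box bound by NF-Y. The 150 bases before the start are printed for 8 genes, chosen to span large falls, small falls and the rise. Capitals mark CHR and CCAAT matches, a minus-strand CCAAT reads ATTGG, and all sequences run 5′ to 3′ toward the gene.
CCNB1: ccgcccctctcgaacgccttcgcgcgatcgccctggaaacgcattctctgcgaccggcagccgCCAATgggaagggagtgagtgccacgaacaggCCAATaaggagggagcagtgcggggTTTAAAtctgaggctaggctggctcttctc
CCNB2: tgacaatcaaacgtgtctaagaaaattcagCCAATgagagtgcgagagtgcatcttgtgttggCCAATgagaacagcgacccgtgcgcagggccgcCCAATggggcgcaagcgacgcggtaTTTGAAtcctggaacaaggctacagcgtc
PLK1: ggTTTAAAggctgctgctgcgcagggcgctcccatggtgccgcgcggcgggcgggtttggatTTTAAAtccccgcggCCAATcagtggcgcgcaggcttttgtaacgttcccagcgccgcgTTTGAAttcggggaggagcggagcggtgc
KIF20A: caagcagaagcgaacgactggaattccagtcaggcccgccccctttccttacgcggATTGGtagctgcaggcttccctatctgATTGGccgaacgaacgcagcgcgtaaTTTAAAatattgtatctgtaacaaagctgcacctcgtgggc
HMMR: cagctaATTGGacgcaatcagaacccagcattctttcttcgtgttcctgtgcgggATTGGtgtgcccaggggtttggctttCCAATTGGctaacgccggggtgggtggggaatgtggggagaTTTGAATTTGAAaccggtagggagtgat
CDC20: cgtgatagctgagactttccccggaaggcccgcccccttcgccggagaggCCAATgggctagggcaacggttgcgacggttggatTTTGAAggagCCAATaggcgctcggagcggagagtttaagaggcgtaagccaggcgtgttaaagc
BUB1: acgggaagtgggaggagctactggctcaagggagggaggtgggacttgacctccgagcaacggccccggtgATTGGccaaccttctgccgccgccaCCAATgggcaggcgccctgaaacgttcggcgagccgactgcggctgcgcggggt
ECT2: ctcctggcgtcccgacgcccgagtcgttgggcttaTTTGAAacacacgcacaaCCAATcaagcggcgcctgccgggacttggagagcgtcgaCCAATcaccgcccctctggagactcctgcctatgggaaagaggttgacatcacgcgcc

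These windows lie at chr5:69167000-69167149 (CCNB1, plus strand), chr15:59104996-59105145 (CCNB2, plus), chr16:23678739-23678888 (PLK1, plus), chr5:138178962-138179111 (KIF20A, plus), chr5:163460482-163460631 (HMMR, plus), chr1:43358831-43358980 (CDC20, plus), chr2:110678064-110678213 (BUB1, minus) and chr3:172750576-172750725 (ECT2, plus). In the lines above, CCNB1 and CCNB2 both carry CCAAT boxes followed by a CHR, although their falls were 14.1-fold and 3.06-fold. BUB1 holds no CHR match of the searched forms and fell 9.85-fold, and ECT2 holds CHR and CCAAT matches and rose.

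A CHR match was found in 31 of the 34 promoters (91.2%), against 24.3% of all 27305 promoter windows and 15.9% of those of tested genes. CCAAT was found in 27 of 34 (79.4%), against 35.7% of all windows. Some related lists described below came near that share. CCAAT was in 68.0% of DNA replication promoters, 65.5% of other kinetochore and 64.7% of other mitotic kinesin promoters. In the other related lists it was in 54.5% or less. CCAAT alone therefore does not mark off the G2/M genes. The highest CHR share in a related list was 52.9%, in other mitotic kinesins and spindle proteins. At least 1 CHR and 1 CCAAT stood in 24 of 34 (70.6%), against 9.5% of all windows. The CHR lay from 50 bases before to 50 after the start in 27 of 34 promoters, against 7.8% of all. In 12 of 34 (35.3%) a CCAAT match began 20 to 30 bases before a CHR, a range chosen after positions had been seen, against 0.66% of all windows. These 12 were CCNB1, CCNB2, CKS2, CENPF, KIF4A, KIF11, KIF14, KIF20A, NUSAP1, DLGAP5, ASPM and PTTG1, and their log2 fold changes ran from -4.37 to -0.84. The 3 promoters without a searched CHR form, those of CCNA2, AURKB and BUB1, belonged to genes with log2 fold changes of -2.89, -3.43 and -3.30. Only TTTGAA and TTTAAA were searched, so these promoters may hold other forms of the element. Which starts the HepG2 cells use was not checked, so an element may also lie outside the window. The median was -1.63 for genes with both elements and -1.97 for the 7 with a CHR alone. E2F letters (TTTGGCGC or TTTCGCGC) were in 3 of 34 promoters (8.8%), in 10 of 25 of the DNA replication list (40.0%) and in 1.2% of all windows. A match is a description of letters, not of binding.

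**Figure D4:**
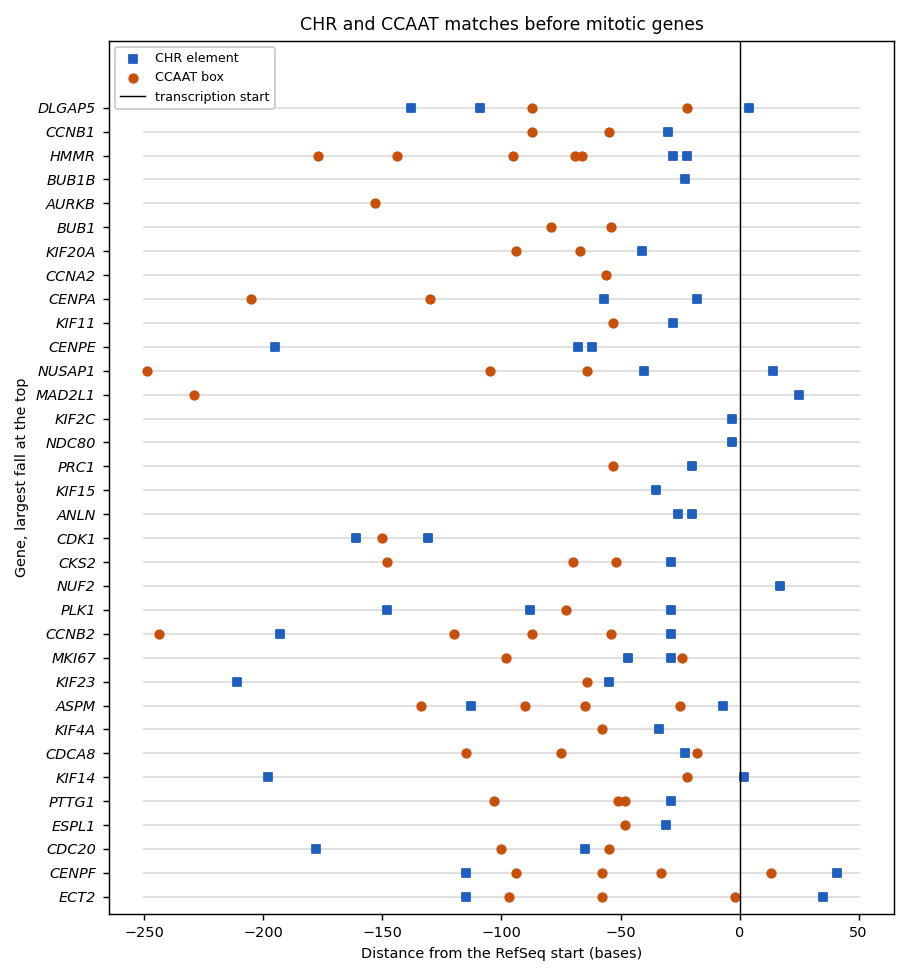
Positions of CHR (blue squares) and CCAAT (orange circles) matches in bases from the RefSeq start, for 34 genes ordered from the largest fall at the top (DLGAP5) to the rise at the bottom (ECT2). In 27 of 34 promoters a CHR match sits within 50 bases of the start, in genes with large and with small falls.

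Over all tested genes 40.5% fell and 40.5% rose, the shares to set beside the counts of this list and those below. In G2/M entry control 12 of 19 genes fell, 6 rose and 1 did not pass (median log2 fold change -0.80). Those that fell with the smallest p were the checkpoint kinase CHEK2, the CDK1-activating phosphatase CDC25B and the inhibitory kinase PKMYT1, at -2.24, -1.73 and -1.57. CDKN1A, SFN, GADD45A, ARPP19, WEE1 and CDK7 rose, the last 3 by 0.53, 0.33 and 0.32 on the log2 scale. The CDK inhibitor CDKN1A went from 249 ± 6.21 to 1228 ± 54.2 CPM, SFN (14-3-3 sigma), which keeps CDK1 in the cytoplasm, from 41.8 ± 3.65 to 377 ± 22.4, and GADD45A from 99.0 ± 6.47 to 446 ± 61.7 (mean ± SD, n = 3 per group). CDKN1A, SFN and GADD45A rose while CCNB1 and CDK1 fell in the same libraries.

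Of the 11 tested MuvB and DREAM subunits, 9 fell, LIN54 rose (0.81) and E2F4 did not pass (median -0.94). TFDP1, RBL2 and RBL1 had log2 fold changes of -1.64, -1.33 and -1.32. Outside the naming rule, MYBL2, the B-MYB factor that joins MuvB to activate G2/M promoters, was picked after its value was seen, with 167 ± 8.18 CPM in DMSO and 24.9 ± 8.79 in EA. In the APC/C list 13 of 17 genes fell and 4 did not pass (median -0.61). Its subunits ANAPC5, CDC23 and ANAPC1 were at -1.43, -1.32 and -0.94, and FZR1, the activator that replaces CDC20 at mitotic exit, at -0.10 (not called). The CDC20 to FZR1 log2 ratio moved by -0.80 (SE 0.31), with -0.11, -0.09 and -1.02 in EA replicates 1, 2 and 3 against 0.39 ± 0.08 in DMSO (SD, n = 3).

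Among 36 other kinetochore and checkpoint genes 28 fell, 3 rose and 5 did not pass (median -1.02), and 6 rose without EA replicate 3. CENPM, TRIP13 and NSL1, those with the smallest p, were at -3.41, -2.07 and -1.97. CENPC, CENPQ and MAD1L1 rose, by 0.50, 1.03 and 0.30. Of 17 other mitotic kinesins and spindle proteins tested, 16 fell and KIF20B (0.22) did not pass (median -1.41). CDCA3, at -3.05, KIF2A, at -1.18, and CKAP2, at -1.21, had the smallest p. Without EA replicate 3, 16 fell and 2 rose of 18 tested. KIFC1, in the same list, had 6 reads over all libraries and was not tested. Whether so few reads reflect low expression or the authors' annotation and counting is not known, so they are not read as absence. Of 11 tubulins 9 fell, TUBB6 rose (0.53) and 1 did not pass, with TUBA1B going from 413 ± 34.5 to 62.3 ± 3.44 CPM.

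Condensin and cohesin parted. All 8 condensin subunit genes fell, with log2 fold changes from -1.89 to -0.78. Of the 5 core cohesin genes 4 rose and SMC1A did not pass (-0.11), with STAG1 at 1.02 and STAG2 at 0.94. NIPBL, the cohesin loader, rose by 1.46 and the cohesin regulator PDS5B fell by 1.56. The list had been set as 1 group, and this split was made after values had been seen.

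Kinesins that carry cargo in interphase mostly rose. Of 19 transport kinesin genes 13 rose, 3 fell and 3 did not pass (median 0.74). KIF3C and KIFAP3, a motor subunit and the accessory subunit of kinesin-2, rose by 1.55 and 1.53. KIF1C, KLC4 and KIF5A fell, with log2 fold changes of -1.07, -1.21 and -0.27. In the DNA replication and S phase list, 27 of 29 genes fell and 2 did not pass (median -1.62), a range that overlapped that of the G2/M genes. That difference between lists was not tested.

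**Figure D5:**
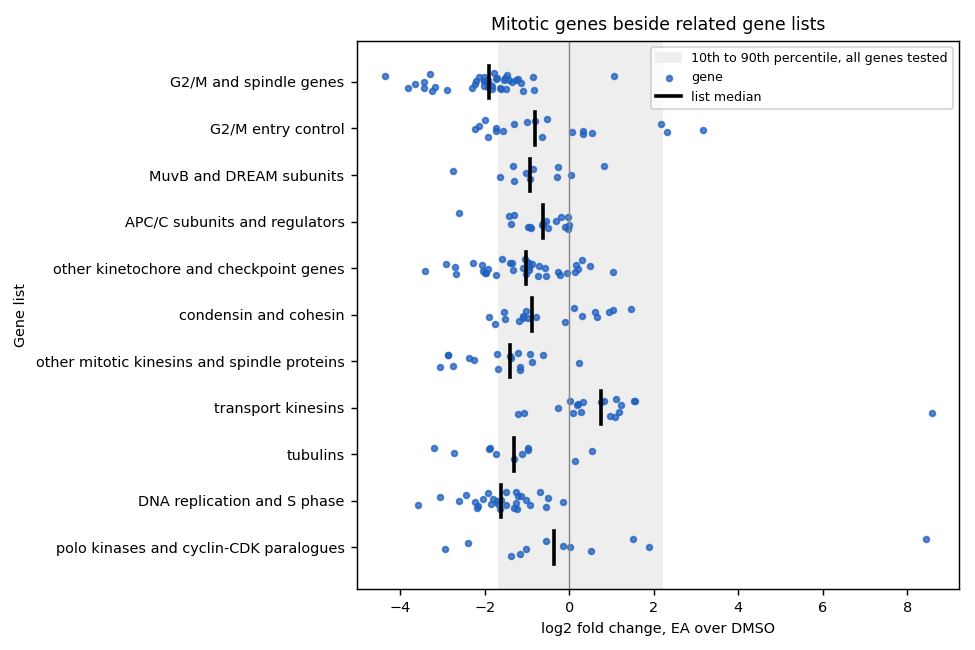
Log2 fold change of EA over DMSO for the 41 G2/M and spindle genes and for the tested genes of 10 related lists. Each blue point is 1 gene, black bars are list medians and the grey band runs from the 10th to the 90th percentile of all tested genes. The medians are -1.91 for the G2/M and spindle genes and 0.74 for transport kinesins.

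Shared exon sequence may limit a few of these values. In GENCODE 29, NUSAP1 shares 62.2% of its exon bases with AC087721.2 and PRC1 57.6% with AC068831.7. Neither of these overlapping genes is among the counted genes, so whether they affected the reads of NUSAP1 and PRC1 is not known. BUB1B shares 10.2% with BUB1B-PAK6 and CENPA 7.0% with SLC35F6, both on the same strand, where a strand setting does not separate reads. BUB1B-PAK6 had 0 reads in both groups, and SLC35F6 had 3659 in DMSO and 1903 in EA. FOXM1 shares 15.9% with ITFG2 on the other strand and PLK1 11.6% with an antisense gene that had 34 reads in DMSO and 17 in EA. No source used here gives the strand setting of the counting, and without it the reads of opposite-strand neighbours cannot be told apart. Copies of these genes took few reads, with 66 or fewer per group for each copy checked, such as UBE2CP1 (24 in DMSO, 66 in EA) beside 3159 and 490 for UBE2C.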

How the data were processed

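RNA was sequenced from 6 HepG2 libraries. The table that the authors deposited holds raw counts, one whole number per gene and library, without normalisation. Named in the submitters' processing notes are HTSeq 0.6.1, HISAT, cutadapt 1.9.1, bcl2fastq 2.17.1.14 and, as build, hg19. The sources used here give no HISAT version, annotation release, strand setting or filters. Columns were matched to samples by name.

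Counts were filtered with filterByExpr, scaled by TMM and tested with edgeR 4.0.16 (R 4.3.3, glmQLFit, robust), with Benjamini-Hochberg adjustment over all tested genes. Each SE was taken as the absolute log2 fold change divided by the root of its F statistic. The common biological coefficient of variation was 7.96%. Pair ratios used raw reads plus 0.5. For exon lengths and overlaps GENCODE 29 (GRCh38) was read, and for promoters RefSeq (GRCh38.p14). Both differ from the files' build, so no position was taken from the counts. With 15738089 reads in the smallest library, a count of 0 allows up to 0.191 CPM (3 reads), for counting error only.

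The 41 genes, the related lists, the pairs and the naming rule were chosen with earlier results of these data known. The rule names all 41 genes, in each related list the 3 genes with the smallest p in each direction among those that passed, members against their list where 3 or fewer, pair genes and polo, cyclin and CDK paralogues. Some of these are given as counts only. On simulated counts for EA against DMSO with 15265 genes, the test found 31 of 50 genes at 1.5-fold and 41 of 50 at 2-fold. It found 50 of 50 at both 4-fold and 8-fold, and made 11 false calls. Only 50 genes at each of these folds were changed there, whereas 81.0% of tested genes were called in the data. The simulation therefore does not give the recovery or false calls of the data. Alternatives were DESeq2 1.42.0, limma-voom (limma 3.58.1), scaling by RLE, by upper quartile or by totals only, testing unfiltered genes, a threshold of 0.01, at least 1 CPM in 3 libraries, testing against 1.5-fold, thinning to 15738089 reads, a replicate block and each library left out.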

Additional observations from a re-analysis of the deposited data

How the results depend on the processing

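Under 17 alternative settings the counts stayed at 40 lower and 1 higher of the 41 genes, except 38 lower with a minimum fold of 1.5 and 39 with an adjusted p of 0.01. CENPF was lost in both (adjusted p 0.116 and 0.0185) and CDC20 in the first (0.0569). Of 697 values of single genes, 694 kept direction and side of the threshold. With the replicate block the counts were again 40 and 1 and the median -1.95. Same-numbered libraries did not deviate together from their group means (r = -0.084, 0.027 and -0.015). With 3 libraries per group this cannot decide whether the samples were paired, and the labels do not say. With 1 library left out, the median ran from -2.04 to -1.69 and the genes at least 4-fold lower, 17 in all libraries, from 10 (without EA replicate 3) to 22 (without EA replicate 2). Counts past a fold were recomputed under every setting after the data had been seen, and under the other settings the 4-fold count was 13 to 21. Over the whole table a minimum fold of 1.5 left 4179 lower genes in place of 6336, by its own construction. Without a filter the median of all 32015 tested genes was 0.25. All 112 alternative values of the gene pairs moved by less than the spread between replicates. In related lists 13 of 340 counts moved by over 1.5 times. With a minimum fold of 1.5 the genes that rose numbered 3 in entry control, 1 in kinetochore, 3 in condensin and cohesin and 0 in tubulins, and 7 APC/C genes fell. Leaving out 1 library gave 1 or 2 rising genes among other mitotic kinesins (1 without a filter), and 6 in kinetochore without EA replicate 3. Libraries with 15738089 reads or more gave at least 23 reads to each of the 41 genes, so depth limits mainly DLGAP5, HMMR and AURKB in EA.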

Other observations

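Paralogues that serve other tissues or phases moved in their own directions. KIF1A, a transport kinesin best known from neurons, was read at 0.506, 0.566 and 0.433 CPM in DMSO and at 177, 179 and 226 in EA. CCNA1, the cyclin A paralogue known from male germ cells, had 1 read over the DMSO libraries and 122, 147 and 91 reads in EA replicates 1, 2 and 3, where CCNA2 had 320, 345 and 122. CCNB3 had 5 reads over all libraries and was not tested.

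Among G1 genes the D-type cyclins and their kinases split. CCND1 went from 554 ± 10.6 to 794 ± 24.5 CPM, while CCND3 went from 22.6 ± 1.49 to 15.4 ± 1.17 and CCND2, at a low level, from 1.74 ± 0.0368 to 0.221 ± 0.135 (mean ± SD, n = 3 per group). CDK4 fell by 2.39 on the log2 scale and CDK2 by 1.39, whereas CDK6 stood at 363 ± 18.1 and 365 ± 12.5 CPM and was not called. CCNE1 fell by 1.02, and CCNE2 at -0.15 (SE 0.17) did not pass.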
